A study of Homo sapiens with 6 samples.

Results

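The genes described here are 8 members of the interleukin-1 family: the ligands IL1A, IL1B, IL18 and IL33, the antagonist IL1RN, and the receptor genes IL1R1, IL1RAP and IL1R2. They were chosen by symbol from a table of 54261 genes, and each of the 8 had its row. Of these, 5 had at least 1 count, and 3 (IL18, IL1R1 and IL1RAP) had enough counts for the test across genes, against 13896 genes tested in all. RNA was sequenced from cells labelled T24, an established human bladder cancer line. The 3 control libraries came from cells infected with the negative-control lentivirus HBLV-ZsGreen-PURO, which carries the fluorescent protein ZsGreen and puromycin resistance. The 3 knockdown libraries came from cells infected with a virus that also carries ZsGreen and puromycin resistance and, in addition, hairpin 2 (shRNA2) against MTHFD2, a mitochondrial enzyme of folate metabolism. Both groups were selected with puromycin as stable lines, so infection and selection are shared by all 6 libraries and no uninfected cells were analysed here. The design text speaks of a knockout, the protocol of a hairpin. A single hairpin was sequenced, and the labels do not say whether replicates 1 to 3 were separate cultures, so p-values measure the spread between these libraries, which may be technical.

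Interleukin-1 signalling starts when IL-1 alpha or IL-1 beta, the products of IL1A and IL1B, binds the receptor IL1R1, which then recruits the accessory chain IL1RAP. Adaptors and kinases inside the cell (MYD88, the IRAK kinases, TRAF6) pass the signal to NF-kB and to MAP kinases, and genes of inflammation such as IL6 and the CXC chemokines are switched on. Brakes act outside the cell: IL1RN occupies IL1R1 without activating it, and IL1R2 is a decoy that binds ligand but lacks the signalling domain. IL18 and IL33 are sister cytokines with receptors of their own. Epithelial cells often store IL18 as an inactive precursor that inflammasome caspases cut, while IL33 is held in the nucleus and released on damage.

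Library totals lay between 17801990 and 19978392 counts. The target, MTHFD2, was at 185 ± 3.18 CPM (counts per 1000000 counts of the library, scaled by TMM) in the controls and 32.4 ± 5.12 CPM after knockdown (SD, n = 3 each), a log2 fold change of -2.51 ± 0.13 (SE; edgeR adjusted p = 1.8e-06). Among 17 markers of bladder epithelium, UPK3A and KRT20 were at 0 in every library, EPCAM, CDH1 and GATA3 held at most 11 counts, and KRT7, KRT8 and KRT18 were abundant. The list summed to 2119 to 2526 CPM in the controls and 1017 to 1336 CPM after knockdown. KRT8 and KRT18, which make up most of these sums, fell (log2 fold changes of -1.27 and -0.89), while ELF3, FOXA1 and UPK1A rose from low levels (0.96, 0.53 and 1.72). UPK1A passed the low-count filter, a minimum of 0.523 CPM in 3 libraries, through the knockdown libraries alone. Its controls were at 0.342, 0.416 and 0.478 CPM, so at these levels it could enter the test only by being higher after knockdown. Several defining markers of the labelled tissue were thus at or near 0. Others on the list were expressed: PPARG held 289, 313 and 287 counts in the controls and UPK1B 84, 101 and 89. PAX8, a gene of kidney and Müllerian epithelia, held 19702 counts over the controls, but it was on none of the marker lists. The identity of the line was not tested. Markers of leukocytes, which make much of the body's IL-1, summed to 2.76 to 4.10 CPM over 15 genes in the controls and 2.04 to 4.03 CPM after knockdown, with CD3D, AIF1 and NKG7 among those at 0 throughout. Of 13 fibroblast markers none was at 0 in every library. The 12 other than FN1, a gene these cells express strongly, summed to 8.83 to 11.5 CPM in the controls, 48.5 and 42.6 CPM in knockdown replicates 1 and 3, and 13.8 CPM in knockdown replicate 2. With FN1 the list summed to 285 to 378 CPM in the controls and 179 to 226 CPM after knockdown, most of it FN1. Of the 8 fibroblast markers tested, 5 rose (COL1A1, COL1A2, COL3A1, DCN and SPARC) and 1, FN1, fell. That is 75% called beside 17.3% of all genes tested. DCN, at 0.513, 0.988 and 0.425 CPM in the controls, needed the knockdown libraries to pass the low-count filter. Of 10 endothelial markers none was at 0 throughout, and they summed to 17.8 to 21.5 CPM and 16.5 to 21.6 CPM, most of it ESAM. Of the 2 tested, ESAM did not pass and CDH5 fell (log2 fold change of -1.18, edgeR adjusted p = 0.0333). DESeq2 called neither. Of 12 squamous markers, 6 (KRT1, KRT6A, IVL, LOR, SPRR1B and SPRR3) were at 0, and the sums were 25.5 to 36.6 CPM in the controls and 13.3 to 24.7 CPM after knockdown, nearly all of it KRT10. In such bulk samples, fewer cells of a type and less RNA per cell cannot be told apart.

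None of the 3 family members with enough counts passed the test (edgeR, adjusted p below 0.05), and 0 had an unadjusted p below 0.05. Across all genes tested, 17.3% passed, 9.71% as higher and 7.58% as lower after knockdown. The cells held IL18 RNA and RNA of both chains of the signalling receptor, and no counts for IL1A, IL1B or IL1RN in any library. The decoy receptor IL1R2, present at a few counts per library, was lower in each knockdown library than in each control. Of 26 listed genes that IL-1 is known to induce, 19 were tested, of which 13 fell and 1 rose. The list was drawn up with a fall of such cytokines in these data already known, so it is not independent evidence.

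IL18 was the most abundant member. It lies on GRCh38 chromosome 11, 112143251 to 112164117, minus strand. Its counts were 812, 921 and 934 in the controls and 954, 1072 and 1341 after knockdown. Scaled for depth this was 46.3, 47.9 and 49.6 CPM in the controls and 47.4, 54.0 and 71.8 CPM after knockdown. The groups overlapped, since knockdown replicate 1 lay within the control range, and knockdown replicate 3 stood above all other libraries. The means were 47.9 ± 1.66 and 57.8 ± 12.6 CPM (SD, n = 3 each). The log2 fold change of IL18 was 0.27 ± 0.14 (SE), with a 95% interval from -0.04 to 0.58, and the edgeR adjusted p was 0.205. Without knockdown replicate 3 the log2 fold change was 0.08, so most of the difference in means lay in that library. Knockdown replicates 1 and 3 were the libraries highest in fibroblast markers other than FN1. With FN1 counted, the summed CPM of the list was lower in every knockdown library than in the controls (179 to 226 against 285 to 378 CPM). Most of that sum was FN1 itself. Among the knockdown libraries, replicate 3 had the highest and replicate 1 the lowest IL18 level. With knockdown replicate 2 alone against the controls the log2 fold change of IL18 was 0.17. The interval spans folds from 0.972 to 1.49.

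IL33 (chromosome 9, 6215786 to 6257983, plus strand) was at the limit of detection. It held 1 count in each control library and 3, 0 and 0 counts in knockdown replicates 1 to 3. A count of 3, the most that a 0 in a library allows, equals 0.149 to 0.171 CPM here. No library exceeded that floor, so no fold is given. Knockdown replicate 1, the library with the 3 counts, had the highest sum of the 12 fibroblast markers other than FN1 (48.5 CPM). With FN1, itself at 178 CPM there, its sum was 226 CPM, below the controls at 285 to 378 CPM. Whether fibroblasts were present, and their part in this value, was not tested.

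IL1A (chromosome 2, 112773915 to 112784590, minus strand) had 0 counts in all 6 libraries. IL1B (112829751 to 112836903, minus strand) likewise had 0 in all 6, as did IL1RN (113107214 to 113134016, plus strand), whose product blocks the receptor. Over the 114334237 counts of the series together, a count of 0 allows each of them up to 0.0263 CPM. Among rows whose symbol GENCODE 29 calls protein-coding, 20.4% (3834 of 18802) were at 0 in every library, and so were 3 of the 8 members.

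These 3 genes share a stretch of chromosome 2 with the remaining IL-1 ligands, and the zeros run through most of that stretch. Of 9 IL-1 family genes between IL1A and IL1RN, 7 held no count: IL1A, IL1B, IL36A, IL36B, IL36RN, IL1F10 and IL1RN. IL37, an anti-inflammatory relative, held 7, 6 and 7 counts in the controls and 4, 2 and 2 after knockdown. IL36G, an epithelial agonist, held 1 in each control and 3, 7 and 1 after knockdown. Neither had enough counts for the test. Most genes on both sides held counts, but NT5DC4, which lies beside CKAP2L, held 0 over the controls and 1 over the knockdown libraries. CKAP2L, whose start lies 19.9 kb from that of IL1A, held 4868 counts over the controls and 4814 over the knockdown libraries. On the far side of IL1RN, PSD4 held 1135 and 1024, and PAX8, which encodes a transcription factor, held 19702 and 20367.

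**Figure D1:**
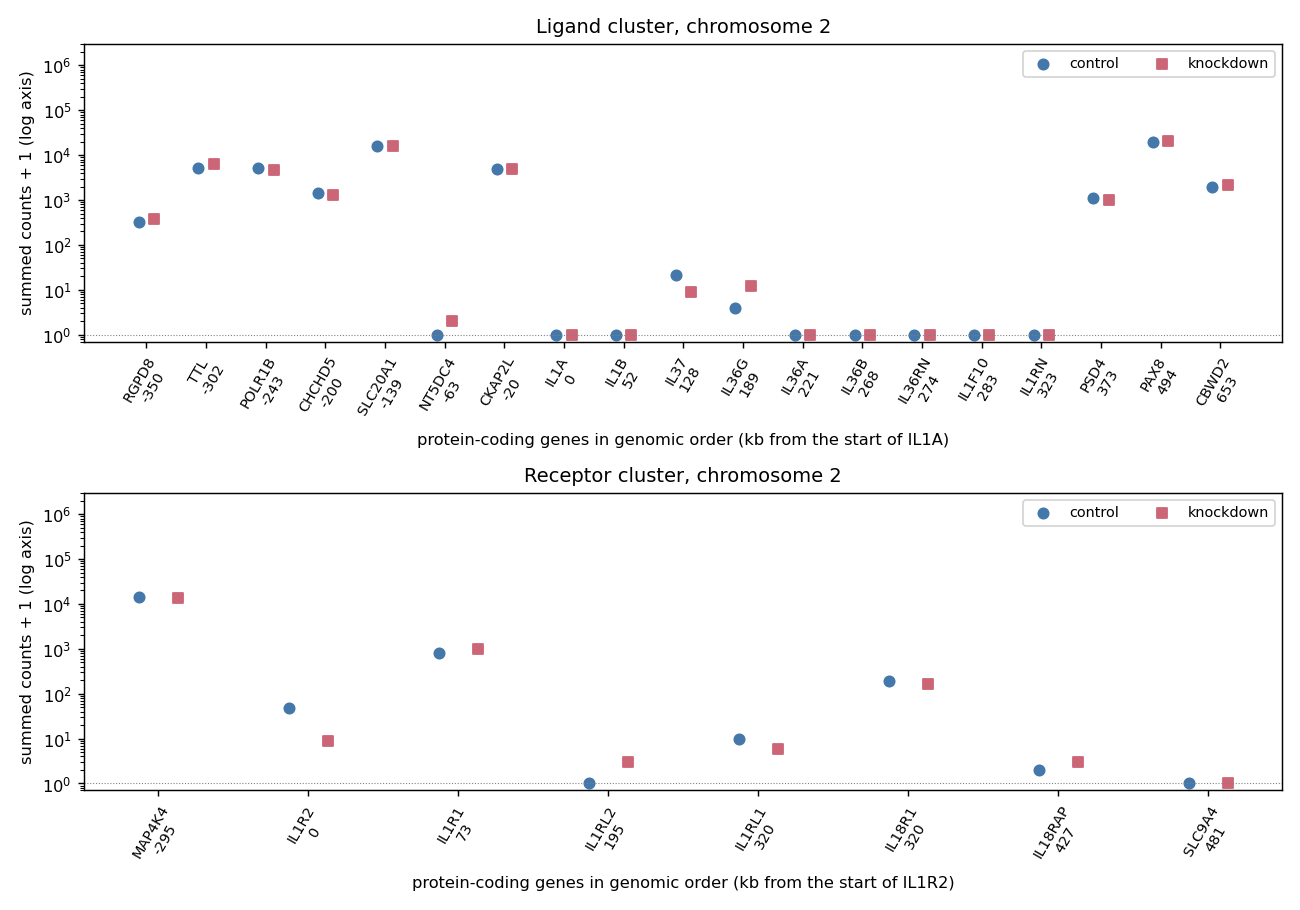
Counts summed over the 3 control libraries (blue circles) and the 3 knockdown libraries (red squares), plus 1 on a log axis, for protein-coding genes in genomic order around the ligand genes (top) and the receptor genes (bottom) of the family on chromosome 2, with the distance of each start from that of IL1A or IL1R2 in kb. IL1A, IL1B and IL1RN sit at 0 counts between CKAP2L and PSD4, which hold 4868 and 1135 counts over the controls, and IL1R2 drops from 47 to 8 counts beside IL1R1 with 803 and 985.

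IL1R1, the chain that binds ligand and signals, was found at a moderate level. It lies on chromosome 2, 102064544 to 102179874, plus strand. In the controls it had 268, 281 and 254 counts (15.3, 14.6 and 13.5 CPM), and after knockdown 352, 356 and 277 (17.5, 17.9 and 14.8 CPM). Knockdown replicates 1 and 2 lay above every control, and replicate 3 lay among them. The log2 fold change was 0.21 ± 0.13 (SE), with a 95% interval from -0.07 to 0.50, and the edgeR adjusted p was 0.265. Fibroblasts also express IL1R1, and their part in its level was not tested. Its values were 17.5 and 14.8 CPM in knockdown replicates 1 and 3, the libraries highest in fibroblast markers other than FN1. In knockdown replicate 2 the value was 17.9 CPM, and with that library alone against the controls the log2 fold change was 0.31. An antisense gene, IL1R1-AS1, overlaps 11 exonic bases of IL1R1, and whether counting used the strand is not known here.

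IL1RAP (chromosome 3, 190514051 to 190659750, plus strand) encodes the accessory chain that IL1R1 and the IL-33 receptor share. Its counts were 164, 169 and 148 in the controls and 184, 247 and 178 after knockdown. In CPM the controls were at 9.35, 8.79 and 7.86 and the knockdown libraries at 9.15, 12.5 and 9.54. Knockdown replicate 2 stood above the rest, and replicate 1 lay inside the control range. The log2 fold change was 0.26 ± 0.16 (SE), with a 95% interval from -0.09 to 0.61, and the edgeR adjusted p was 0.279. With knockdown replicate 2 alone it was 0.52, and without that library 0.11, so the size of the difference rested on it. The fit with 1 knockdown library has an edgeR adjusted p of 0.0473, but it takes the spread from the controls alone and assumes that the lone library varies as they do, here and wherever knockdown replicate 2 alone is given. IL1RAP overlaps another transcript, AC108747.1, on the same strand over 535 exonic bases, and reads there could belong to either.

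The ratio of IL1R1 to IL1RAP counts was 1.63, 1.66 and 1.72 in the controls and 1.91, 1.44 and 1.56 in knockdown replicates 1 to 3, so the control values lay inside the knockdown range. For IL18, IL1R1 and IL1RAP the groups overlapped, while over all genes tested the knockdown libraries lay entirely above the controls in 20.1% and entirely below in 19.0%.

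IL1R2, the decoy, was the member whose groups did not overlap. It lies on chromosome 2, 101991844 to 102028544, plus strand, with its start 72.7 kb upstream of that of IL1R1. It had 9, 20 and 18 counts in the controls and 2, 5 and 1 after knockdown. In CPM these were 0.513, 1.04 and 0.956 against 0.0994, 0.252 and 0.0536, or 0.836 ± 0.283 and 0.135 ± 0.104 CPM (SD, n = 3 each). Every knockdown library was below every control, as were 11.8% of the 25308 genes with a count. Knockdown replicates 1 and 3 were below the floor of 3 counts. Summed over libraries, 47 counts stood against 8, which is a level 6.19-fold lower after knockdown with a 95% exact binomial interval of 2.90 to 15.2 that covers counting error only. Control replicate 1, at 0.513 CPM, was under the minimum of 0.523 CPM in 3 libraries that the low-count filter sets, so IL1R2 was not among the tested genes.

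When the filter was lifted, which adds genes of few counts, IL1R2 had a log2 fold change of -2.57 ± 0.62 (SE) and an edgeR adjusted p of 0.000809 over 25308 genes, of which 12.0% passed and 5.44% passed as lower. DESeq2 gave -2.64 and an adjusted p of 0.0139. An exact two-sided permutation test of 3 against 3 libraries cannot give less than p = 0.1, the value that any separated groups have, so it adds nothing here. Leaving out any single library kept the unfiltered edgeR log2 fold change between -3.34 and -2.22, with adjusted p-values from 0.000867 to 0.0176. With knockdown replicate 2 alone, which held 5 counts, the log2 fold change was -1.72 (edgeR adjusted p = 0.0951). Leukocytes also express IL1R2. The sums of their markers overlapped between the groups. PTPRC, which all leukocytes carry, held 2, 4 and 2 counts in the controls and 1, 1 and 0 after knockdown, and the part of such cells in the IL1R2 counts was not tested.

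The sequences upstream of IL1R2 are shown because it was the member whose libraries separated. RefSeq gives the gene 2 starts on GRCh38.p14, and the 250 bases before each were searched on both strands for GGG, any 2 bases and TTTCC (a strict form of NF-kB sites), for GGG, any 5 bases and CC (a loose form) and for TGANTCA (AP-1 sites). Matches are in capitals, and the plus strand is printed 5′ to 3′. The GENCODE 29 start of the gene lies inside the upper window, and the lower window lies within the gene. The upper one is chr2:101991710-101991959 and the lower one chr2:101998711-101998960.
IL1R2 upstream start: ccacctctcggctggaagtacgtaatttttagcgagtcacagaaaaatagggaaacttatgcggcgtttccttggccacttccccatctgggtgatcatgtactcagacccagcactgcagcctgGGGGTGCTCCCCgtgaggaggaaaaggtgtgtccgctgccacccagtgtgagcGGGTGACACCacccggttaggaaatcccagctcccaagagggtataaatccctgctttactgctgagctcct
IL1R2 downstream start: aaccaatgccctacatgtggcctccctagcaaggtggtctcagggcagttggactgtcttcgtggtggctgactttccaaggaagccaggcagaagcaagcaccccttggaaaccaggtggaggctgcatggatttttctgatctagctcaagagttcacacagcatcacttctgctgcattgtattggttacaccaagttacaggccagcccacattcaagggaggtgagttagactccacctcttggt

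The window of the upstream start held 4 matches to the loose NF-kB letters, of which 3 overlap one another at 125, 124 and 123 bases before the start and the other begins 72 bases before it. The window of the downstream start held none. Neither held the strict letters or TGANTCA. The loose letters occur in 54.4% of the 35116 RefSeq windows of this length, the strict letters in 1.73% and the AP-1 letters in 6.57%, so a match to the loose form is common. Of the 8 members, 7 had a window, and IL18 had none. A match to the strict NF-kB letters was found in 1 window of IL1RN, 97 bases before its start, and the AP-1 letters in windows of IL1A and IL1RN. Both genes were at 0 counts.

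**Figure D2:**
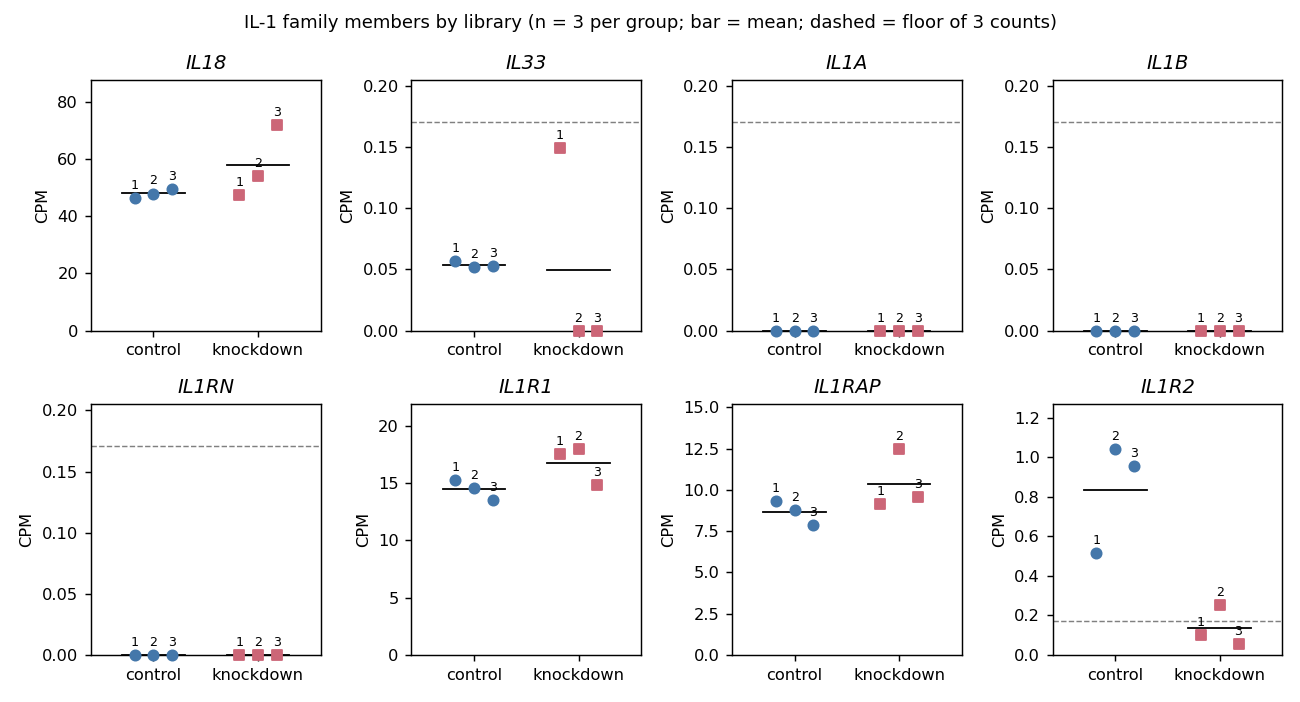
CPM of each member in each library, with control libraries as blue circles, knockdown libraries as red squares, replicate numbers above the points and a bar at the mean of 3. The dashed line in the panels of low genes is the highest floor of 3 counts, 0.171 CPM; IL1R2 is the panel in which the groups stand apart, and IL18 in knockdown replicate 3 reaches 71.8 CPM.

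Levels of different genes were compared per kilobase of exonic length. In the controls IL18 was highest at 18.2 ± 0.633 CPM per kb (SD, n = 3), above 84.2% of 17703 genes with a count. IL1R1 followed at 2.04 ± 0.127 CPM per kb, then IL1RAP at 0.75 ± 0.065 and IL1R2 at 0.272 ± 0.0921 CPM per kb. The ranges of these 4 genes over the control libraries did not overlap. IL33 came next at 0.0166 CPM per kb, below the floor, and IL1A, IL1B and IL1RN were at 0 and cannot be ordered. After knockdown IL18, IL1R1 and IL1RAP kept this order (22.0, 2.37 and 0.898 CPM per kb). IL1R2, at 0.0174 to 0.082 CPM per kb, then overlapped IL33, at 0 to 0.0458. The exonic length used for IL1RAP, 11.6 kb, joins the exons of all its transcripts, so a level per kb is too low where a cell uses a shorter form.

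The genes whose pattern over the 6 libraries lay closest to that of IL18 were ZNF277, LMO4 and LARP6, at Euclidean distances of 0.0631, 0.0633 and 0.0919 between centred log2 CPM profiles. For IL1R1 they were BRD8, DDX17 and TTC23, at 0.0864, 0.0877 and 0.0942. For each of these members they were the 3 nearest of 10477 tested genes with a mean of at least 5 CPM, in order of distance, which is a description of these 6 libraries.

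**Figure D3:**
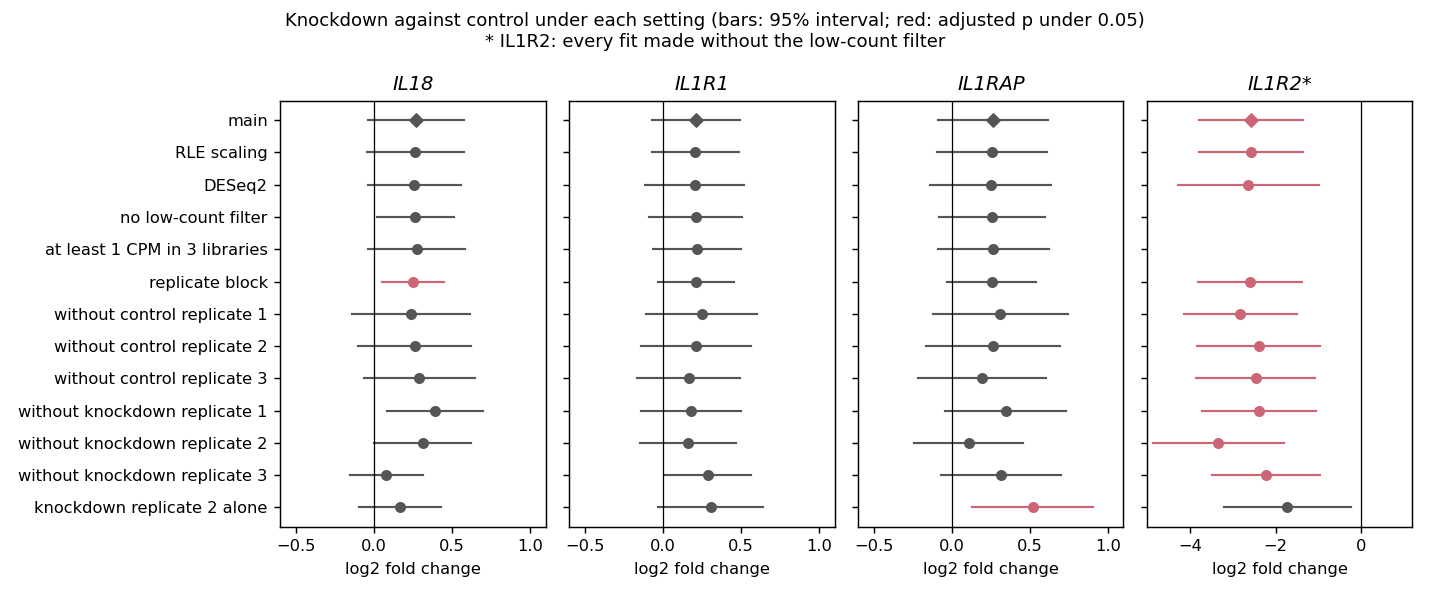
Log2 fold change of IL18, IL1R1, IL1RAP and IL1R2, knockdown against control, under each processing setting, with 95% intervals (from edgeR, or for DESeq2 from a normal distribution); red marks an adjusted p under 0.05 and the diamond the setting used first. IL18, IL1R1 and IL1RAP lie to the right of 0 with intervals that mostly cross it (0.27, 0.21 and 0.26 at the diamond), while IL1R2, fitted without the low-count filter, lies between -3.34 and -1.72.

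Other receptors and binding proteins of the family did not pass the test either. Of 8 genes, 2 were at 0 throughout, 3 were tested and none passed in either direction by edgeR or DESeq2, with 0 at an unadjusted edgeR p under 0.05. SIGIRR, an inhibitory receptor, was at 12.4 ± 1.47 CPM in the controls and 11.6 ± 1.80 CPM after knockdown, and IL18BP, the secreted trap of IL-18, at 4.45 ± 0.518 and 5.34 ± 1.94 CPM (SD, n = 3 each). IL18R1, the ligand-binding receptor of IL-18, was singled out after its values were seen because it is the partner of the most abundant ligand. It held 69, 67 and 54 counts in the controls and 41, 74 and 49 after knockdown, and the groups overlapped. Its co-receptor IL18RAP held at most 2 counts in a library. IL1RL1, which binds IL-33, held 3 counts in each control and 4, 1 and 0 after knockdown, at or near the floor.

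Among genes that process the ligands few passed. Of 23 inflammasome and processing genes, 12 were tested, 2 fell and 1 rose, or 25% called beside 17.3% of all genes tested, with a median log2 fold change of 0.02 beside 0.01 over all genes tested. NLRP3, the sensor of the best known inflammasome, fell from few counts. It held 15, 12 and 22 counts in the controls and 7, 1 and 2 after knockdown, and it fell by 2.33 ± 0.57 (SE) on the log2 scale, with an edgeR adjusted p of 0.0175. NLRP3 passed the low-count filter, a minimum of 0.523 CPM in 3 libraries, through the controls alone. Every knockdown library was under that minimum, and replicates 2 and 3 were under the floor of 3 counts. At these knockdown levels NLRP3 could enter the test only by being higher in the controls. CASP4, which senses bacterial lipopolysaccharide inside cells and can cut pro-IL-18, fell from 29.9 ± 2.19 to 20.6 ± 2.24 CPM, by 0.54 on the log2 scale (edgeR adjusted p = 0.0139). GSDME, listed under its older symbol DFNA5, encodes a pore-forming gasdermin and rose from 16.3 ± 1.68 to 23.8 ± 3.88 CPM (edgeR adjusted p = 0.0245). Each of these calls was lost when certain single libraries were left out. The edgeR adjusted p of NLRP3 became 0.0506 when control replicate 1 was left out, 0.0805 when control replicate 3 was and 0.0505 when knockdown replicate 2 was, and that of CASP4 0.0624 and 0.0574 when control replicates 1 and 3 were. That of DFNA5 became 0.115, 0.0545 and 0.0553 when control replicate 1, control replicate 3 and knockdown replicate 3 were left out. With knockdown replicate 2 alone the log2 fold change of DFNA5 was 0.43, beside 0.54 with all libraries. CASP1, the caspase that matures IL-1 beta and IL-18, held at most 5 counts in a library, and PYCARD, the adaptor that joins it to inflammasome sensors, was at 0 in all 6. These 2 genes were named after their values were seen.

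In the signalling cascade below the receptor, 20 of 22 genes were tested, 1 rose and 1 fell, or 10% called beside 17.3% of all genes tested, and the median log2 fold change was -0.07 beside 0.01. IRAK1, the kinase recruited through MYD88, fell from 435 ± 22.5 to 300.4 ± 57.9 CPM, by 0.53 on the log2 scale (edgeR adjusted p = 0.0182). Its libraries held 7516, 8012 and 8664 counts in the controls and 7348, 5587 and 4744 after knockdown. PELI3, an E3 ubiquitin ligase that binds IRAK kinases, rose from 3.65 ± 0.42 to 6.10 ± 0.904 CPM, by 0.74 on the log2 scale (edgeR adjusted p = 0.0236). When control replicates 1 and 3 were left out in turn, the edgeR adjusted p of IRAK1 became 0.0568 and 0.0658 and that of PELI3 0.0752 and 0.103. Leaving out knockdown replicate 2 gave PELI3 0.0633. MYD88 itself, named after its values were seen, was at 41.4 ± 2.18 CPM in the controls and 36.1 ± 2.50 CPM after knockdown and did not pass (edgeR adjusted p = 0.214).

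Genes that IL-1 is known to induce fell in 13 of 19 tested cases and 1 rose, so that 73.7% passed beside 17.3% of all genes tested, and the median log2 fold change was -0.62 beside 0.01. Other NF-kB stimuli induce the same genes, and the list was drawn up with a fall of such cytokines in these data already known, so it is not independent evidence of a direction. IL6, a cytokine of the acute phase, fell most. It held 197, 256 and 256 counts in the controls and 44, 28 and 27 after knockdown, and fell by 2.91 ± 0.20 (SE) on the log2 scale, with an edgeR adjusted p of 4.59e-05. MMP3, a matrix protease, held 32, 35 and 29 counts against 7, 5 and 4, and CXCL2, a chemokine for neutrophils, 105, 121 and 107 against 38, 15 and 16. MMP3 fell by 2.63 on the log2 scale (edgeR adjusted p = 0.00103), and CXCL2 fell by 2.35 (edgeR adjusted p = 0.000725). MMP3 passed the low-count filter, a minimum of 0.523 CPM in 3 libraries, through the controls alone. Its knockdown libraries were at 0.348, 0.252 and 0.214 CPM, so at these levels it could enter the test only by being higher in the controls. TNFAIP6, a secreted protein that binds hyaluronan, was the gene that rose, from 34, 36 and 31 to 69, 121 and 85 counts (1.37 ± 0.25 on the log2 scale; edgeR adjusted p = 0.00499). For IL6, MMP3, CXCL2 and TNFAIP6 the groups did not overlap, as was the case for 39.1% of all genes tested. The fall of the list was counted at 11 to 13 genes when single libraries were left out, and 13 fell with DESeq2. With knockdown replicate 2 alone the count was also 13, in a fit whose spread comes from the controls only.

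**Figure D4:**
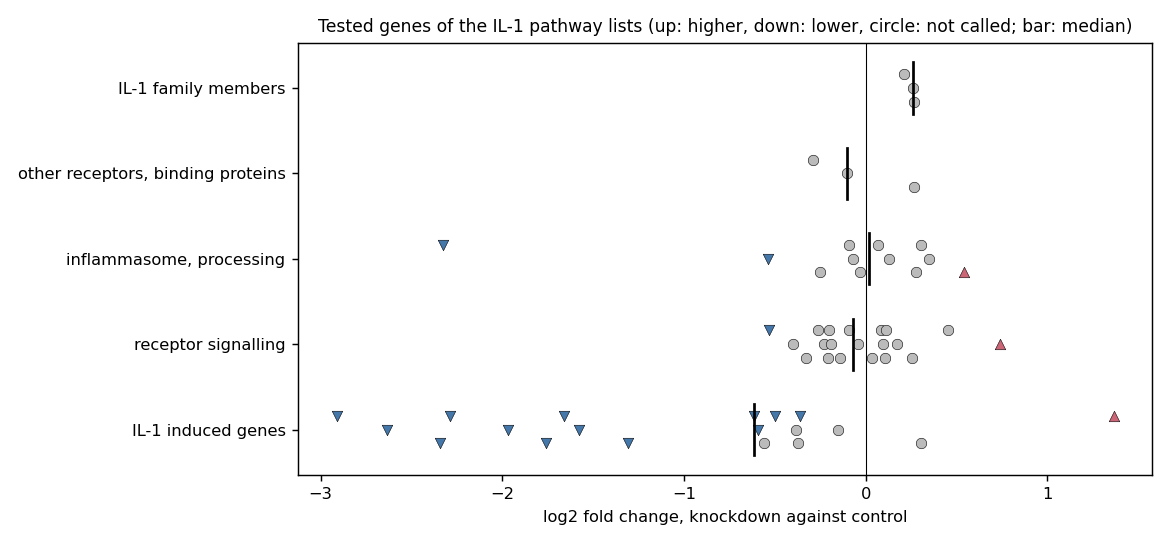
Log2 fold change, knockdown against control, of every tested gene of the family and of the pathway lists, with genes called higher as red upward triangles, genes called lower as blue downward triangles, genes not called as grey circles and the median of each list as a bar. The medians of the other receptors, the processing genes and the signalling genes are -0.10, 0.02 and -0.07, and that of the IL-1 induced genes is -0.62.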

How the data were processed

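A single table of raw counts per gene symbol for 6 libraries was deposited by the authors. HISAT2 2.0.4 and build GRCh38 are named in the submitters' processing notes. For the counting tool, annotation and strandedness nothing was given in the sources used here. Every column was used, and no row lacked a name. Groups came from the titles. Replicate pairs of a group differed by more than sampling noise (chi-square over its degrees of freedom 2.63 to 34.7), so none was a library deposited again; this does not show separate cultures.

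After filterByExpr and TMM scaling, edgeR's quasi-likelihood test (edgeR 4.0.16, limma 3.58.1, R 4.3.3) was run on 13896 genes. P-values were adjusted over all of them by Benjamini-Hochberg, with 0.05 as the threshold. CPM used TMM-scaled library sizes, and log2 CPM a prior count of 2. The SE is the log2 fold change divided by the square root of F. The procedure was tested on simulated data, in which edgeR recovered 42% of 1.5-fold and 74% of 2-fold changes. Of the edgeR calls 6.10% were false, and of the DESeq2 calls 13.0%. Alternatives were RLE scaling, DESeq2 1.42.0, no filter, at least 1 CPM in 3 libraries, a block for the replicate number, single libraries left out, knockdown replicate 2 alone and a threshold of 0.01. Fits of IL1R2 without the filter were added after seeing the data.

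Coordinates and exonic lengths came from GENCODE 29, and upstream sequences from RefSeq on GRCh38.p14. Named from each pathway list are up to 4 called genes by size, with each direction present, or else the 2 most abundant; 1 listed symbol was matched through its older name. The members and lists were chosen with earlier results of these data known.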

Additional observations from a re-analysis of the deposited data

How the results depend on the processing

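The direction of IL18, IL1R1, IL1RAP and IL1R2 was kept under every alternative that gave a value. No family member was called higher, except 1 (IL18, adjusted p = 0.0424) with the replicate block and 1 (IL1RAP) with knockdown replicate 2 alone, a fit whose spread comes from the controls only. None was called lower with the filter and all libraries, and 1 (IL1R2) was with DESeq2 and with no filter. Leaving out single libraries gave 0 higher and 0 to 1 lower, since with fewer libraries IL1R2 can pass the filter. Across all genes, 1349 were called higher and 1053 lower. The counts were 2566 and 2496 with the replicate block, 2212 and 2220 with knockdown replicate 2 alone, 472 and 277 at a threshold of 0.01, and 600 to 1468 and 368 to 1213 with single libraries left out. The lowest of these came without control replicate 1 (600 and 403), control replicate 3 (618 and 368) and knockdown replicate 2 (852 and 617).

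Processing genes were called higher in 3 cases with the replicate block, 2 with knockdown replicate 2 alone and 0 at 0.01, and lower in 1 with at least 1 CPM in 3 libraries and 0 at 0.01. With single libraries left out they numbered 0 to 1 higher and 0 to 2 lower. Signalling genes were called higher in 2 cases with DESeq2, no filter, the replicate block or knockdown replicate 2 alone, and in 0 at 0.01. They were called lower in 2 with DESeq2, 4 with the replicate block, 3 with knockdown replicate 2 alone and 0 at 0.01. With single libraries left out they numbered 0 to 1 higher and 0 to 2 lower. IL-1 induced genes were called higher in 2 cases with the replicate block, and lower in 11 to 15 over all alternatives. The cause of these shifts was not tested, apart from fewer libraries or a stricter threshold by construction.

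The labels do not say whether same-numbered libraries were handled together. The correlations of their deviations from the group means were -0.02, 0.30 and 0.35 for replicates 1, 2 and 3. Control replicates 2 and 3 each correlated best with the knockdown library of the same number, and control replicate 1 with knockdown replicate 2 (0.16). Whether the shared number marks a batch was not tested. The log2 fold change of SIGIRR ranged from -0.20 to 0.015 with single libraries left out, above 0 without knockdown replicate 2, and that of IL18R1 turned to 0.12 with knockdown replicate 2 alone. Neither passed in any fit. At these depths genes below about 0.17 CPM in a library could not be measured, which covers IL33 in every library and IL1R2 in knockdown replicates 1 and 3.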
